A study of Urocitellus parryii with 44 samples.

Results

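Transcripts of the mitochondrial enzymes of fatty acid beta-oxidation were measured in brown adipose tissue of arctic ground squirrels through 10 genes: Acadvl, Acadl, Acadm, Acads, Hadha, Hadhb, Hadh, Acaa2, Decr1 and Etfdh. Every probe whose annotation gave 1 of these symbols and no other was taken. This gave 24 of the 38400 probes on 4 membranes, from 22 distinct clones, and all 24 had enough values to be tested. Acadvl, Acadl and Hadh had 4 probes each, Acadm had 3, and Hadha, Acaa2 and Etfdh had 2 each. Acads, Hadhb and Decr1 had 1 probe each. The probes are mouse cDNA, so a symbol names the mouse gene, and all 10 symbols are also gene symbols in the RefSeq annotation of the arctic ground squirrel (assembly mUroPar1.hap1).

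Beta-oxidation shortens a fatty acyl-CoA in the mitochondrial matrix by a repeated cycle of dehydrogenation, hydration, a further dehydrogenation and thiolytic cleavage, and each turn gives reduced electron carriers and acetyl-CoA. The first dehydrogenation is shared out among acyl-CoA dehydrogenases by the chain length they prefer, and the later steps on long chains are carried out by the trifunctional protein of the inner membrane. Brown fat burns fatty acids by this route to make heat when its mitochondria are uncoupled, and hibernators draw on stored fat as their main fuel through the winter.

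The comparison set 5 animals in winter torpor, a state of strongly lowered metabolism and body temperature, against 3 active animals sampled in August. All are Urocitellus parryii, and no treatment, genotype, age or sex is given for any of them in the labels. Each RNA carried a phosphorus isotope label and was measured on all of the membranes MA07, MA08, MA10 and MA11. Summer animals 1 and 2 and torpid animal 5 had duplicate measurements, which were averaged to 1 value per animal. Season and activity changed together between the groups and cannot be told apart.

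Values are spot intensities divided by the median of their column, so that 1 is the median spot. Across probes, on the log2 scale, duplicates of 1 RNA correlated at 0.815 to 0.957. Animals of 1 group correlated at 0.774 to 0.950 and animals of different groups at 0.808 to 0.929. The lowest value within a group (0.774) and the lowest between groups (0.808) were both on MA08. Over all membranes, the median correlation of an animal with its own group ran from 0.883 to 0.936. Among 9 marker genes of brown adipocytes, 6 had a probe (Cidea, Dio2, Prdm16, Ppargc1a, Elovl3 and Fabp3), and Ucp1, Cox7a1 and Adrb3 had none with that single symbol. The tissue label was therefore not checked against Ucp1, the uncoupling protein that defines brown fat. In this bulk tissue, fewer cells of a type and less RNA per cell cannot be told apart.

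Acadm was the 1 gene of the 10 with probes past the threshold, and it was higher in torpor. It encodes the medium-chain acyl-CoA dehydrogenase, which opens the cycle on acyl chains of intermediate length. Its 3 probes gave differences of 2.83 ± 0.27 (SE) on MA07, 2.28 ± 0.22 on MA11 and 2.40 ± 0.53 on MA10 (torpor minus summer, log2 intensity, 3 summer and 5 torpid animals). The first and second passed the threshold, with adjusted p = 0.0062 and 0.0039 by limma over all 37848 tested probes, and the third did not (adjusted p = 0.067). A single clone supplied the MA10 and the MA11 probe, whose differences lay 0.12 apart on the log2 scale. The probe on MA07 is of another clone.

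On MA07 (probe 6212) the intensity of Acadm was 1.07, 0.663 and 1.18 times the column median in summer animals 1 to 3. In torpid animals 1 to 5 it was 7.71, 7.97, 8.35, 5.88 and 4.49. All torpid animals lay far above all summer animals, and the fold was 7.11 (95% interval 4.70 to 10.8). On MA11 (probe 7295) the intensities were 1.68, 1.51 and 1.98 in summer and 9.41, 7.90, 8.03, 9.40 and 7.11 in torpor. Here the spread within each group was the smallest of the 3 Acadm probes, with an SD of 0.20 in summer and 0.18 in torpor on the log2 scale, and the fold was 4.86 (3.49 to 6.78). On MA10 (probe 8907) the intensities were 2.50, 0.866 and 1.04 in summer and 10.1, 9.91, 14.2, 2.86 and 3.94 in torpor. Summer animal 1 and torpid animal 4 came close to each other on this membrane, at 2.50 and 2.86, although the groups still did not overlap. The duplicates of summer animal 1 differed by 1.25 on the log2 scale for this probe, against 0.08 on MA11.

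By rank of p among the 37848 tested probes, the MA11 probe of Acadm was 2nd and the MA07 probe 5th. The calls of both held in all 8 fits that left out 1 animal, with adjusted p up to 0.029 on MA07 and 0.021 on MA11 by limma. They also held in each of 8 other settings of scaling, floor, filter, variance, duplicates and replicate block, with adjusted p up to 0.031 and 0.048. The MA10 probe passed in 2 of the 8 fits that left out 1 animal, those without summer animal 1 (adjusted p = 0.029) and without torpid animal 4 (0.039), and in 5 of the 8 other settings.

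**Figure D1:**
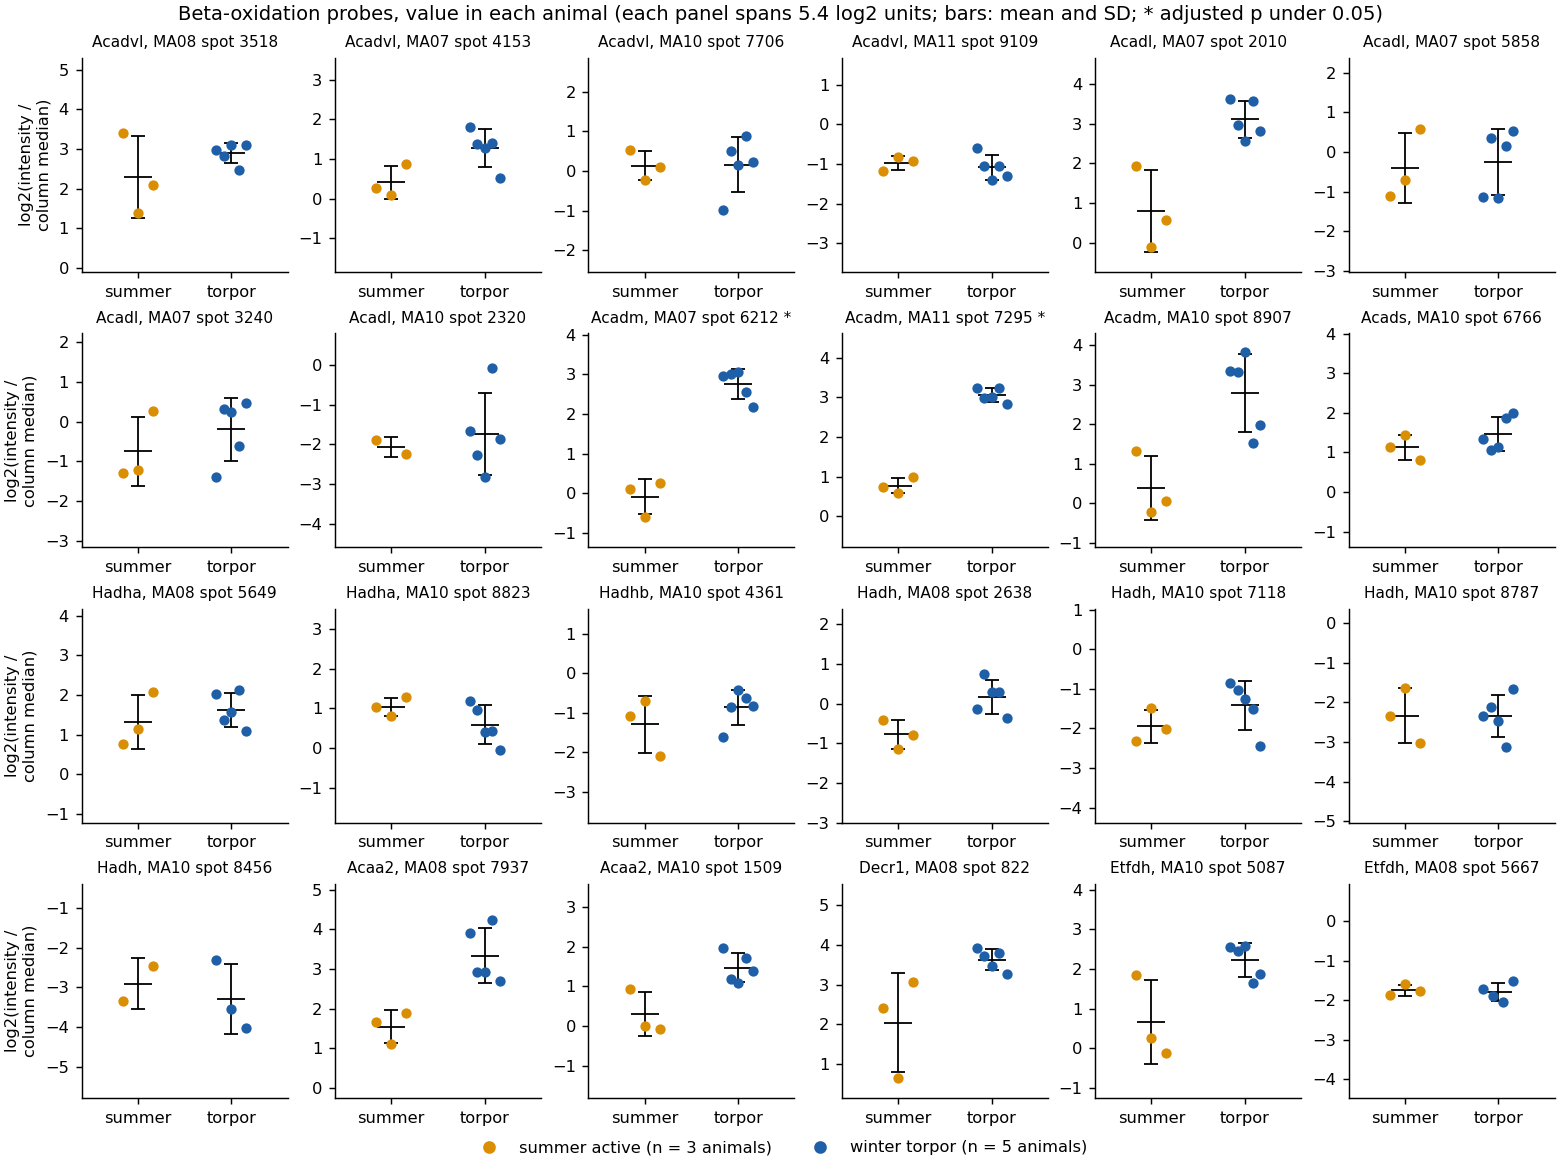
Log2 intensity over the column median (y axis, each panel spanning the same range) in each summer (orange) and torpid (blue) animal for the 24 beta-oxidation probes, with the mean and SD of each group as bars; stars mark the 2 probes with adjusted p under 0.05. The Acadm panels show torpid animals wholly above summer animals, whereas the groups overlap in the Acads, Hadha and Hadhb panels.

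Of the 24 probes, 2 passed the threshold, both higher in torpor, which is 8.33% of the members against 0.309% of all tested probes in either direction and 0.259% in the higher direction. Over all probes 117 passed, 98 of them higher. That count was 347 without summer animal 1 and 45, 17, 50 and 60 without torpid animal 1, 2, 3 or 4, and it was 63, of which 46 higher, with cyclic loess scaling. The count of members was 5 without summer animal 1, and 2 or 3 without any other animal. No member passed as lower, as 0.0502% of all tested probes did, and 0 of the 24 had an unadjusted p under 0.05 in that direction, where 5.18% of all tested probes did. In the higher direction 10 members had an unadjusted p under 0.05, against 6.39% of all tested probes. In 8 of the 24 probes every torpid animal lay above every summer animal, a pattern seen in 4.37% of all tested probes, and these 8 probes belong to 5 genes (Acadm, Acadl, Hadh, Acaa2 and Decr1). Positive differences were found in 19 of the 24 probes, against 50.0% of all, and the median member difference was 0.54 on the log2 scale, against 0 over all probes. Some of these probes share a gene or a clone and are not independent of each other.

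**Figure D2:**
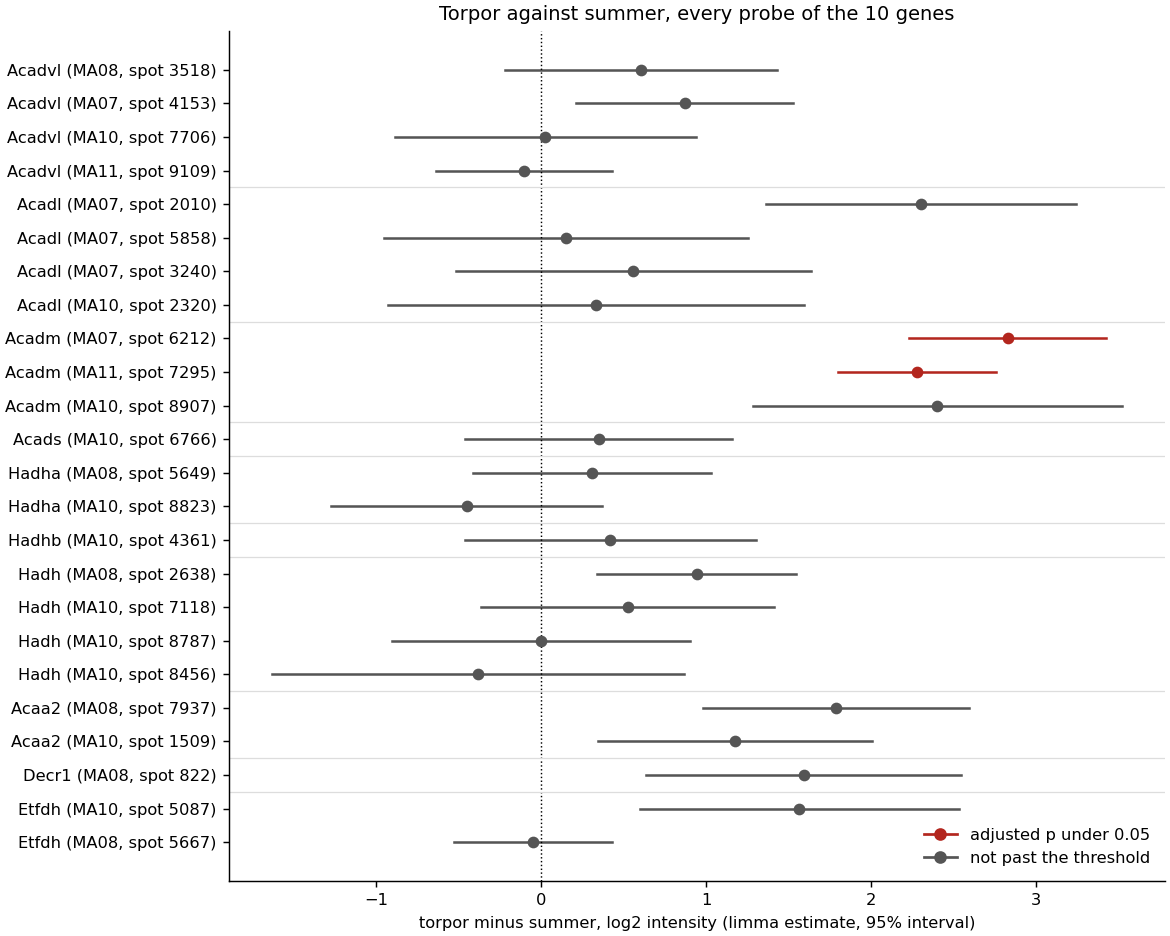
Difference between torpor and summer in log2 intensity (x axis) with its 95% interval from limma for the 24 probes, grouped by gene along the y axis; red marks adjusted p under 0.05. The 3 Acadm intervals begin at 1.28 or higher, and among the 4 Acadl probes only the one at spot 2010 has an interval that leaves out 0.

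The dehydrogenases for longer chains gave mixed values. Acadl, the long-chain acyl-CoA dehydrogenase, had 1 probe with a large difference and 3 with smaller ones. On MA07 (probe 2010) its intensity was 3.82, 0.934 and 1.50 in summer and 12.4, 7.88, 5.91, 11.8 and 7.02 in torpor, without overlap. The difference was 2.31 ± 0.42 (SE, log2), a fold of 4.94 (95% interval 2.57 to 9.49), and it missed the threshold (limma adjusted p = 0.063). This probe passed in the fit without summer animal 1 (2.87, adjusted p = 0.0060), without the dimmest 25% of probes (0.041), with a trended and robust prior (0.038) and with the first duplicates alone (0.042), and over all its alternatives the adjusted p ran up to 0.14.

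The other Acadl probes on MA07 gave 0.15 ± 0.50 (probe 5858) and 0.56 ± 0.48 (probe 3240), and that on MA10 (probe 2320) gave 0.33 ± 0.59, with limma adjusted p from 0.70 to 0.94. In both of the weaker MA07 probes summer animal 3 was the highest summer animal and torpid animal 1 lay below it, at intensities of 1.50 against 0.452 for probe 5858 and 1.19 against 0.377 for probe 3240. The 95% interval of probe 2010 (1.36 to 3.25) and that of probe 5858 (-0.96 to 1.25) did not overlap, although both are annotated as Acadl and lie on 1 membrane. Probe 2010 was the brightest of them, at the 95.9th signal percentile of its membrane, and the others lay between percentiles 20.9 and 38.6.

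Acadvl, the very long-chain acyl-CoA dehydrogenase of the inner membrane, did not pass with any of its 4 probes. On MA08 (probe 3518) its intensity was 10.6, 2.59 and 4.27 in summer and 7.87, 7.04, 8.51, 5.58 and 8.64 in torpor. Summer animal 1 was the highest of all 8 animals there, and the difference was 0.61 ± 0.38 (limma adjusted p = 0.57). It was 1.16 without summer animal 1 and 0.15 without summer animal 2, and passed in neither case (0.084 and 0.91). The second run of summer animal 2 minus the first was -1.42 on the log2 scale for this probe. On MA07 (probe 4153) the intensities were 1.20, 1.06 and 1.84 in summer and 3.52, 2.61, 2.43, 2.66 and 1.42 in torpor, where 4 torpid animals lay above the summer range and torpid animal 5 within it. This probe gave 0.87 ± 0.30 (limma adjusted p = 0.29). The clone spotted on both MA10 and MA11 gave 0.02 ± 0.43 and -0.11 ± 0.25, with 95% intervals of -0.89 to 0.94 and -0.64 to 0.43.

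Acads, the short-chain acyl-CoA dehydrogenase, was represented by 1 probe on MA10 (probe 6766). Its intensity was 2.22, 2.69 and 1.76 in summer and 2.52, 2.08, 2.19, 3.67 and 3.97 in torpor. Torpid animals 4 and 5 lay above the summer range and the other 3 within it. The difference was 0.35 ± 0.38 (limma adjusted p = 0.76), and its 95% interval, -0.46 to 1.16, leaves out changes as large as those of the Acadm probes.

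The acyl-CoA dehydrogenases were then set against each other within each animal, by the log2 difference between a pair of probes, with each gene represented by its brightest probe. This test, too, was chosen with earlier results of these data known. Brightness was the mean over all 8 animals, torpid ones included, and of the 3 Acadm probes the one chosen has the lowest summer mean and the highest difference. The chosen probes lie on MA08 (Acadvl), MA07 (Acadl and Acadm) and MA10 (Acads). All pairs but Acadl and Acadm therefore cross membranes, and variation between separate measurements of an RNA does not cancel in them. Of the 6 pairs compared, 4 differed between torpor and summer by an exact permutation test (two-sided, 56 divisions of the 8 animals), each at p = 0.018, the smallest this design allows, and at 0.027 after Benjamini-Hochberg adjustment over the 6 pairs. Acadm rose relative to Acads by 2.48 on the log2 scale (95% interval 0.75 to 3.96) and relative to Acadvl by 2.22. The within-animal difference of Acadm over Acads was -1.05, -2.02 and -0.57 in summer and 1.61, 1.94, 1.93, 0.68 and 0.18 in torpor, so that every torpid animal lay above every summer animal. Acadl, by its brightest probe, rose relative to Acads by 1.96 (0.62 to 3.45) and relative to Acadvl by 1.70. The Acadvl minus Acadl difference was 1.47, 1.47 and 1.51 in the 3 summer animals, and -0.66, -0.16, 0.52, -1.09 and 0.30 in torpor. The close summer values are averages of duplicates in animals 1 and 2. For the Acadvl probe the second run minus the first was -0.46 and -1.42 in these animals on the log2 scale. Without torpid animal 2, 4 or 5 none of the 4 pairs passed, with adjusted exact permutation p from 0.057 to 0.086, while without torpid animal 1 or 3 all 4 passed (0.043). Without any 1 summer animal they had 0.071, the lowest that the remaining 21 divisions allow for 4 of 6 pairs, so they could not pass. With the brightest probe taken over the summer animals alone, a choice made after seeing the data, Acadm was represented by its MA11 probe and the same 4 pairs passed (adjusted exact permutation p = 0.027). Acadm then rose relative to Acads by 1.93 (0.67 to 2.78), and Acadvl minus Acadm was -1.68 (-2.91 to -0.70).

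No difference was detected between Acadl and Acadm (-0.52 for Acadl minus Acadm, 95% interval -2.17 to 0.71, exact permutation p = 0.38) or between Acadvl and Acads (0.26, -1.21 to 1.82, p = 0.68). These intervals include differences of more than 1 on the log2 scale. By the probes brightest in summer, Acadl minus Acadm was 0.02. With each gene represented by the mean of all its probes, none of the 6 pairs passed after adjustment. The pairs with Acadm then gave -2.16 for Acadvl minus Acadm (-2.95 to -1.55, exact permutation p = 0.018, adjusted p = 0.071), -1.69 for Acadl minus Acadm (p = 0.036, adjusted p = 0.071) and 2.16 for Acadm minus Acads (p = 0.036, adjusted p = 0.071). The Acadvl minus Acadl and Acadl minus Acads differences shrank to -0.47 and 0.47 (exact permutation p = 0.20 and 0.29).

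**Figure D3:**
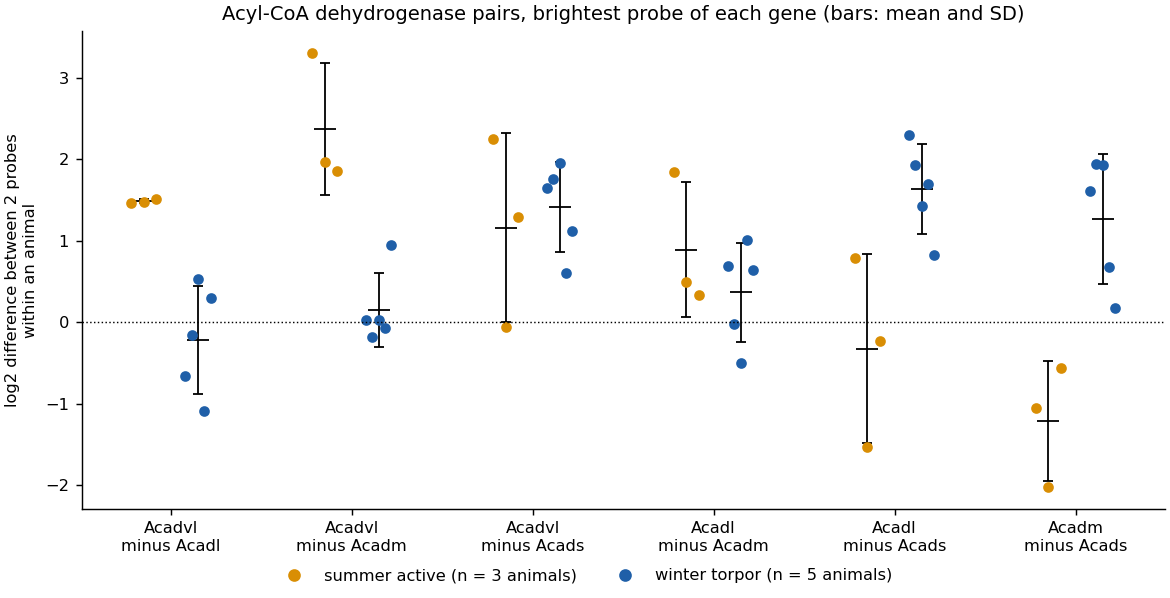
Log2 difference between the brightest probes of 2 acyl-CoA dehydrogenases within each animal (y axis) for the 6 pairs of Acadvl, Acadl, Acadm and Acads (x axis), with summer animals in orange, torpid animals in blue and the mean and SD of each group as bars. The groups are separate in the 4 pairs that set Acadm or Acadl against Acadvl or Acads and overlap in the other 2 pairs.

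The trifunctional protein, which carries the hydratase, hydroxyacyl-CoA dehydrogenase and thiolase activities for long chains, did not pass by any of its 3 probes. Hadha, its alpha subunit, had intensities of 1.69, 2.20 and 4.22 in summer and 4.04, 2.58, 2.96, 4.34 and 2.13 in torpor on MA08 (probe 5649), a difference of 0.31 ± 0.33 with a 95% interval of -0.41 to 1.03. On MA10 (probe 8823) it had 2.03, 1.76 and 2.43 in summer and 2.27, 1.96, 1.33, 1.34 and 0.965 in torpor, a difference of -0.45 ± 0.39 (interval -1.27 to 0.37). The signs of the Hadha probes are opposite, and neither passed by limma (adjusted p = 0.76 and 0.68). The MA08 difference was 0.03 without summer animal 1 and 0.68 without summer animal 3. Hadhb, the beta subunit with the thiolase activity, had intensities of 0.475, 0.618 and 0.236 in summer and 0.330, 0.555, 0.750, 0.643 and 0.565 in torpor (MA10, probe 4361). The torpid range overlapped the summer range, and the difference was 0.42 ± 0.42 (limma adjusted p = 0.73). It was 1.18 with the first duplicates alone and 0.12 with the second, and 0.02 without summer animal 3 or 0.71 without summer animal 2.

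Hadh encodes the soluble 3-hydroxyacyl-CoA dehydrogenase for medium and short chains. Its brightest probe, on MA08 (probe 2638), had intensities of 0.752, 0.456 and 0.582 in summer and 0.919, 1.67, 1.23, 1.22 and 0.778 in torpor. The groups did not overlap, but torpid animal 5 lay only just above summer animal 1, and the difference of 0.94 ± 0.28 did not pass (limma adjusted p = 0.22). The duplicates of summer animals 1 and 2 differed by 1.32 and 1.46 for this probe, more than the difference between the groups. The remaining Hadh probes are on MA10 at signal percentiles of 4.1 to 23.6, and gave 0.52 ± 0.42 (probe 7118), -0.0019 ± 0.43 (probe 8787) and -0.38 ± 0.58 (probe 8456, with values in 2 summer and 3 torpid animals).

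Acaa2, the mitochondrial thiolase that cleaves medium-chain 3-ketoacyl-CoA, was higher in every torpid animal than in every summer animal by both of its clones. On MA08 (probe 7937) the intensity was 3.14, 2.14 and 3.70 in summer and 14.9, 7.52, 7.61, 19.0 and 6.46 in torpor. The difference was 1.79 ± 0.37 (SE, log2), a fold of 3.46 (95% interval 1.98 to 6.04), and it missed the threshold (limma adjusted p = 0.080). It passed only when the dimmest 25% of probes were left out (0.046), and over its other alternatives the adjusted p ran from 0.063 to 0.19. On MA10 (probe 1509) the intensity was 1.91, 1.01 and 0.956 in summer and 3.90, 2.26, 2.11, 3.30 and 2.63 in torpor. This gave 1.18 ± 0.39 (limma adjusted p = 0.25). Torpid animals 1 and 4 were the highest by both clones.

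Decr1 encodes the 2,4-dienoyl-CoA reductase, which removes a double bond that blocks the oxidation of unsaturated chains. Its 1 probe (MA08, probe 822) was the brightest of the 24, at the 97.4th signal percentile. The intensity was 5.32, 1.57 and 8.39 in summer and 15.1, 13.2, 11.1, 13.9 and 9.59 in torpor. The torpid animals were close together and above all summer animals, whereas the summer animals spread more than 5-fold. The difference of 1.59 ± 0.44 did not pass (limma adjusted p = 0.19). Summer animal 2, the lowest, had duplicates that differed by 1.96 on the log2 scale, and the difference was 0.89 without that animal and 2.10 without summer animal 3.

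Etfdh encodes the ubiquinone oxidoreductase that takes the electrons of the acyl-CoA dehydrogenases from their flavoprotein carrier to the respiratory chain. On MA10 (probe 5087) its intensity was 3.61, 1.19 and 0.915 in summer and 5.92, 5.51, 6.03, 3.14 and 3.64 in torpor. Summer animal 1 reached the level of torpid animals 4 and 5, and the difference was 1.57 ± 0.46 (limma adjusted p = 0.18). Without summer animal 1 it was 2.16 and passed (0.029), and without summer animal 3 it was 1.17 (0.46). The second Etfdh probe, on MA08 (probe 5667), lay at the 2.9th signal percentile, had no value in torpid animal 1, and gave -0.05 ± 0.22.

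The size of the member differences went with the brightness of the probe. In the brightest 25% of the probes of each membrane all 11 member probes were positive, with values from 0.31 to 2.83 and a median of 1.59, where 60.9% of all tested probes of that class were positive and their median was 0.15. In 6 of these 11 the groups did not overlap, against 8.57% of all tested probes of the class. The 6 members in the dimmest 25% had a median of -0.02 and none separated the groups upwards, against 2.55% of all probes there. The 7 members between ran from -0.45 to 1.18. Within genes with several probes, the brightest probe also had the highest value for Acadl, Acadm, Hadha, Hadh, Acaa2 and Etfdh, and not for Acadvl. For Acadm this depended on the torpid animals: its probe brightest in summer, on MA11, had the lowest Acadm difference (2.28). The order did not hold below the brightest probe of Acadl, with 0.15 at percentile 38.6, 0.56 at 35.8 and 0.33 at 20.9. Signal percentiles here are means over all 8 animals, so a large rise in torpor itself lifts them.

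**Figure D4:**
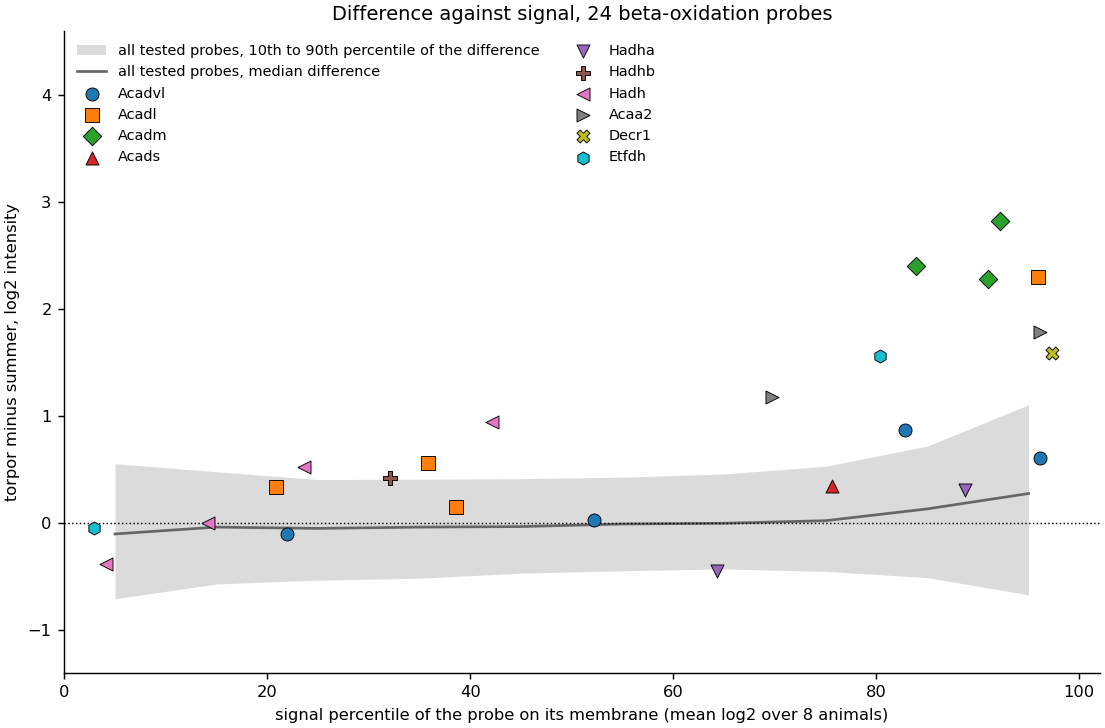
Difference between torpor and summer in log2 intensity (y axis) against the signal percentile of the probe on its membrane (x axis) for the 24 probes, marked by gene, over the median (line) and the band from the 10th to the 90th percentile (grey) of all tested probes in steps of 10 percentiles. The 11 members in the brightest 25% all lie above 0, while the 6 in the dimmest 25% lie between -0.38 and 0.52.

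The spread between animals was larger in these probes than in most. The SD between animals had a median of 0.50 in summer and 0.46 in torpor over the members, against 0.36 and 0.35 over all tested probes. Duplicates of 1 RNA differed by a median of 0.49 and 0.62 in summer animals 1 and 2 and 0.27 in torpid animal 5 over the members, against 0.44, 0.44 and 0.32 over all probes with both values. Summer animal 2 was the lowest of the 3 summer animals in 12 of the 24 probes, where it was lowest in 31.5% of all tested probes. In every member probe on MA08 with both runs, its second run minus the first was negative, from -1.96 to -0.40. The members on MA11 also had a lower second run, while MA07 and MA10 gave both signs. Among the torpid animals, animal 5 was the lowest in 10 of the 24 (18.1% of all tested probes) and animal 1 the highest in 8 (25.3%).

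Other genes of the pathway were taken from 5 lists of 25 genes, of which 20 had at least 1 probe and 46 probes in all. By limma 1 of the 46 passed as higher and 0 as lower, against 0.259% and 0.0502% of all tested probes. An unadjusted p under 0.05 was found for 5 as higher and 1 as lower, against 6.39% and 5.18% of all. The median difference was -0.02 and 21 of the 46 were positive, against 19 of 24 for the 10 enzymes. The 1 called probe was of Slc25a20, the carnitine-acylcarnitine translocase of the inner mitochondrial membrane, which brings acyl groups to the matrix. On MA11 (probe 7260) its log2 intensity was 1.39, 1.36 and 1.02 in summer and 3.71, 3.09, 2.60, 2.71 and 2.83 in torpor, with a difference of 1.73 ± 0.28 (limma adjusted p = 0.027). The same clone gave 1.13 ± 0.52 on MA10 and another gave 0.57 ± 0.26 on MA07. By limma, Slc25a20 on MA11 no longer passed when summer animal 2 (adjusted p = 0.051), summer animal 3 (0.064), torpid animal 2 (0.081) or torpid animal 5 (0.051) was left out. The count over the 46 probes was then 0, and it was 2 without summer animal 1, where Etfa joined.

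The remaining 11 probes of the carnitine shuttle did not pass. Cpt1a, an entry enzyme that controls the flux, gave 0.08 and 0.07 by 1 clone on MA08 and MA11. Cpt1b, also on this list, had no probe, so its level was not measured. Cpt2, which reforms acyl-CoA in the matrix, gave 0.59 ± 0.20 on MA08 without overlap of the groups (limma adjusted p = 0.27). Its probes on MA10 gave 0.16 and -0.89, the latter at the 2.1th signal percentile with values in 2 summer and 2 torpid animals. Of the flavoprotein subunits that hand electrons to the product of Etfdh, Etfa gave 1.50 ± 0.68 on MA10 (limma adjusted p = 0.40) and -0.41 on MA08. Etfb gave -0.53 ± 0.59 on MA08 and -0.92 ± 0.59 on MA11 (limma adjusted p = 0.77 and 0.58). Summer animal 3 was the highest of all 8 animals for both Etfb probes, at log2 intensities of 5.98 and 7.04. Summer animals 1 and 2 had 2.6 and 3.5 on MA08 and 3.7 and 4.3 on MA11, against torpid means of 3.5 and 4.1. The Etfb duplicates of summer animal 2 differed by 3.25 and 2.35. On MA10 the log2 intensity of Etfa was 5.83, 2.20 and 2.71 in summer and 5.94, 4.44, 5.35, 5.80 and 3.88 in torpor, and the difference was 2.63 (adjusted p = 0.035) without summer animal 1.

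Among the other mitochondrial enzymes, 7 of 14 probes were positive and the median was 0.01. Eci1, an enoyl-CoA isomerase for unsaturated chains, had the smallest p of this list by a probe on MA07 (0.40 ± 0.16, limma adjusted p = 0.37), and its other probes gave 0.21, 0.04 and -0.27. All 6 probes of the regulators Ppara, Ppargc1a, Pdk4 and Mlycd were negative, with a median of -0.44, and with cyclic loess scaling 1 of the 6 was positive. The lowest was of Ppara, the nuclear receptor that drives fatty acid oxidation genes, at -0.93 ± 0.43 by a dim probe on MA11 (limma adjusted p = 0.44), and its other probe gave -0.02. Among the peroxisomal counterparts 5 of 10 probes were positive and the median was 0.01, which quantile and cyclic loess scaling turned to -0.03 and -0.05. Ehhadh, the peroxisomal bifunctional enzyme, gave -1.20 ± 0.48 (limma adjusted p = 0.34) by a dim probe at the 12.1th signal percentile. This probe had no value in torpid animal 2, and its duplicates of summer animal 2 differed by 2.24.

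**Figure D5:**
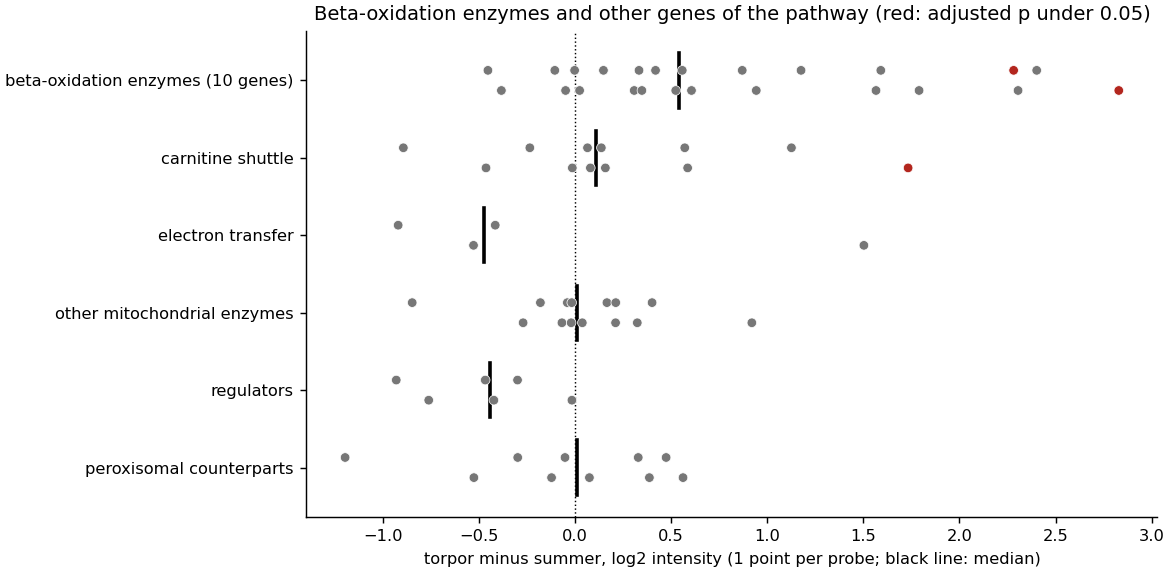
Difference between torpor and summer in log2 intensity (x axis) for the probes of the 10 enzymes and of 5 lists of other pathway genes (y axis), with 1 point per probe, the median of each list as a black line and probes with adjusted p under 0.05 in red. The median is 0.54 for the 10 enzymes and lies between -0.47 and 0.11 for the other lists.

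Summed levels of white adipocyte and skeletal muscle markers did not overlap between the groups. Over 8 probes of 3 white adipocyte markers, the summed intensity ran from 60.3 to 83.7 in summer and from 20.8 to 38.1 in torpor, with 2 of 5 marker genes not represented. This separation came from 2 bright probes on MA10, of Psat1 (-1.58) and Agt (-2.00), and the other 6 probes ran from -0.80 to 0.11. Over 6 probes of 4 skeletal muscle markers, out of 10, it ran from 134 to 161 in summer and from 81.2 to 101 in torpor. Tnnc2, a troponin of fast muscle, gave at least 80% of this sum in every animal, with a difference of -0.77. Of the 6 muscle probes 2 were positive, those of Actn3 on MA11 (0.97) and Ckm on MA10 (0.41). Brown adipocyte markers summed to 17.0 to 25.8 in summer and 20.4 to 43.3 in torpor. The higher sums came from Fabp3 on MA07 (1.99, with intensities of 28 and 18.9 in torpid animals 1 and 4), whereas 6 of the 10 probes were negative and the median was -0.34. The sums overlapped for immune, endothelial, erythroid and nerve markers too. By limma 0 of the 55 marker probes passed the threshold, and 11 had an unadjusted p under 0.05 in either direction, against 0.309% passing and 6.39% (higher) and 5.18% (lower) with such a p among all tested probes. No marker was listed at 0. The part of cell composition in the differences of the beta-oxidation genes was not tested.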

How the data were processed

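Brown adipose RNA of 3 summer active and 5 torpid animals was measured on 4 mouse cDNA membranes in 44 columns. The deposited values are linear intensity per spot over the median of its column, a scaling by the authors that the values themselves show. The image analysis was not given in the sources used here, and the number of arrays limits the precision. Empty cells (3.45%) were treated as missing. Values were taken to log2 and duplicates of 1 RNA averaged. Each membrane was fitted with limma 3.58.1 in R 4.3.3 (torpor minus summer, two-sided, probes measured in 2 or more animals per group), with Benjamini-Hochberg adjustment over the tested probes of all 4 membranes and a threshold of 0.05. The fit was tested on simulated data. Signal percentiles rank a probe's mean log2 value on its membrane.

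Intervals for pairs of genes come from inverting the permutation test. For the mean of several probes, each probe was first centred on the mean of its group means.

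Symbols come from the platform annotation of 2007. Named genes were all 10 members and, of each pathway list, the called probes or else the probe with the smallest p. The members, lists and tests were chosen with earlier results of these data known. Alternatives covered scaling, a floor, a filter on dim probes, the variance prior, the duplicates, a replicate block and each animal left out. Gene symbols were matched without regard to case, and matching members by gene ID added no called probe.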

Additional observations from a re-analysis of the deposited data

How the results depend on the processing

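Limits come first from the number of animals, and signal over background was not available for these spots. Of 117 called probes over all membranes, the count became 63 with cyclic loess, 238 without the dimmest 25% of probes, 228 with a trended and robust prior, 176 and 38 with the first or second duplicates alone, and 17 to 347 with 1 animal left out. The 2 called members became 5 without those dim probes, 4 with the trended and robust prior, 4 with the first duplicates and 2 to 5 with 1 animal left out. For the other pathway genes the count of 1 became 0 to 2. Summer and torpid animals share numbers 1 to 3 in the labels, but same-numbered animals did not deviate together (correlations of 0.01, 0.01 and 0.01 over all tested probes), so the numbers do not pair them. With the replicate number as a block, 32 probes and 3 members were called, the third being the MA10 probe of Acadm.

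Several probes with values near 0 changed sign, none of them called. Acadvl on MA10 (probe 7706) gave -0.49 with the second duplicates, -0.24 with the replicate block and -0.16 to 0.31 with 1 animal left out. Acadl probe 5858 gave -0.25 with the block and -0.20 to 0.64 with 1 animal left out, and Acadl probe 2320 gave -0.084 to 0.61. Hadh probe 8787 gave 0.057 with cyclic loess, 0.00044 with the first duplicates, 0.029 with the block and -0.34 to 0.35 with 1 animal left out. Etfdh probe 5667 gave 0.061 with quantile normalization, 0.14 with cyclic loess, 0.12 with the first duplicates and -0.14 to 0.034 with 1 animal left out.

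With genes as the mean of their probes, the 4 called pairs of dehydrogenases were no longer called, at -0.47 for Acadvl minus Acadl, -2.16 for Acadvl minus Acadm, 0.47 for Acadl minus Acads and 2.16 for Acadm minus Acads. With 1 animal left out they ran from -1.88 to -1.48, -2.48 to -1.76, 1.36 to 2.51 and 2.08 to 2.81. Without any 1 summer animal the 4 had an adjusted exact permutation p of 0.071 each, the lowest that 21 divisions allow for 4 of 6 pairs. Acadvl minus Acads ran from -0.35 to 0.80, and Acadl minus Acadm from -0.80 to -0.05, and the latter was 0.023 by the probes brightest in summer, an alternative chosen after seeing the data.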
